A study of Sus scrofa with 6 samples.

Results

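The genes described here encode collagen chains, the polypeptides that wind into the triple helices of collagen. They were chosen by name alone, as the genes whose pig Ensembl identifier maps to a symbol made of COL, a type number, the letter A and a chain number. Of the 20731 genes in the expression table, 33 met this rule, and they were set in groups by collagen type. There were 9 fibrillar chains (types 1, 2, 3, 5 and 11), 8 chains found mainly in basement membranes (types 4, 15 and 18), 2 chains of type 6 and 14 chains of other types. A mean of at least 1 FPKM (fragments scaled to gene length and library size) over all libraries was reached by 16 of them, and the other 17 lay below it. A further 11 collagen symbols of the RefSeq annotation of the pig, COL6A3 and COL7A1 among them, were not matched to a gene of the table and are not analysed here.

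A collagen molecule is a trimer of alpha chains, either identical or different, whose prolines and lysines are hydroxylated in the endoplasmic reticulum before the folded molecule is secreted. Fibrillar collagens are then trimmed and cross-linked into fibres, type 4 collagen forms the sheet of basement membranes, and type 6 forms beaded filaments around cells. In the testis, Sertoli cells rest on a basement membrane that they build together with the peritubular myoid cells around the tubule, and fibrillar collagens lie in the layer outside it.

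The libraries were made from total RNA of immature pig Sertoli cells, the somatic cells of the testis tubule, with no genetic change named. Of the 6 libraries, 3 are labelled Control and 3 are labelled MT, the latter from cells given melatonin at 10 nM for 36 h, and no solvent, dose or time is given for the Control cells. The comparison therefore asks how transcript levels differ between cells with and without melatonin. Nothing in the labels says whether replicates were separate cultures, so p-values measure how far these libraries scatter, and that scatter may be technical only. Since RNA was measured in bulk, a different number of cells of a type and a different amount of RNA per cell cannot be told apart in any value below.

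Read totals recovered from the steps of the low FPKM values lay between 19579279 and 21500665 per library. The markers of Sertoli cells were present only in part. VIM lay between 2249 and 3175 FPKM, AMH between 11.3 and 15.6, WT1 between 10.0 and 12.8 and SOX9 between 1.61 and 2.40, while INHA, NR5A1, DMRT1, DHH and KITLG stayed at 0.10 or below in every library. Control replicate 3 differed strongly from its group: the chi-square per gene between its reads and those of Control replicates 1 and 2 was 149 and 141, against 6.34 between those replicates and 7.12 to 23.7 among the MT libraries. The test of each collagen gene of at least 1 FPKM is therefore given with and without this library.

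The collagens were dominated by 1 gene. COL1A2, the alpha 2 chain of type 1 collagen, ranked number 7 of all genes in the table by mean FPKM, and it made up 71.7% to 73.5% of the summed FPKM of all collagen genes in each library. COL4A1, COL4A2, COL6A1 and COL5A1 followed with means between 100 and 400 FPKM, and COL18A1, COL8A1, COL12A1, COL6A2, COL3A1 and COL16A1 lay between 10 and 100. The remaining 5, COL27A1, COL1A1, COL15A1, COL17A1 and COL4A5, lay between 1 and 10 FPKM. In this order of levels the libraries of COL4A2 overlapped those of COL6A1, and the same held for COL6A1 with COL5A1, COL18A1 with COL8A1, COL12A1 with COL6A2, and each neighbouring pair from COL27A1 to COL4A5. The other neighbours in the order did not overlap. These overlaps are of ranges over all libraries. Within every single library COL4A2 lay above COL6A1, COL6A1 above COL5A1 and COL12A1 above COL6A2, while the other overlapping pairs changed order in at least 1 library.

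**Figure D1:**
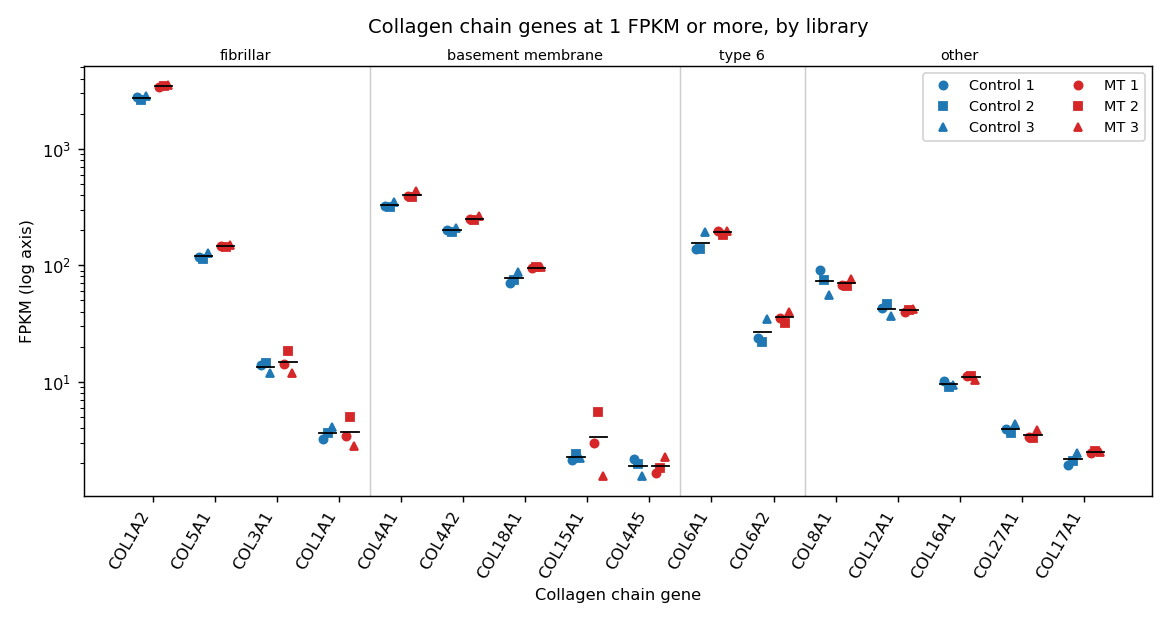
Level of each tested collagen gene in FPKM (log axis), with 1 point per library, Control in blue, MT in red and black lines at the group means. COL1A2 sits above all other collagens in every library, and COL1A1, its partner chain in type 1 collagen, lies between 2.79 and 4.98 FPKM.

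The summed level of the collagens was higher in every MT library than in every Control library. The sum was 3798, 3653 and 3987 FPKM in Control replicates 1 to 3, which was 1.13%, 1.10% and 1.21% of all FPKM. In MT replicates 1 to 3 it was 4680, 4663 and 4843 FPKM, or 1.39%, 1.41% and 1.46%. Most of this sum is COL1A2, but without COL1A2 the sums still did not overlap, at 1018 to 1129 FPKM in Control and 1237 to 1335 in MT. By reads, collagen genes took 1.93% to 2.09% of the Control libraries and 2.46% to 2.54% of the MT libraries.

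Gene by gene, the difference was seen mainly in abundant chains, though not in COL8A1 and COL12A1. The scale used, log2(FPKM + 1), understates changes of low genes. The comparison used limma on log2(FPKM + 1) with Benjamini-Hochberg adjustment over the 10950 genes that averaged 1 FPKM or more, and a log2 difference here is MT minus Control on that scale. With all 6 libraries 0 of the 16 collagen genes passed an adjusted p of 0.05, and the share over all tested genes was likewise 0%. At an unadjusted p under 0.05 there were 5 collagen genes higher in MT (COL1A2, COL4A1, COL4A2, COL5A1 and COL18A1), against 2.33% of all tested genes, and 0 lower, against 2.39%. For 6 collagen genes, these 5 and COL16A1, every MT library lay above every Control library, against 6.24% of all tested genes. For 0 collagens did every MT library lie below every Control library, against 4.99%.

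Leaving out Control replicate 3 changed the calls. Without it, 7 of the 16 collagen genes rose in MT at an adjusted p under 0.05 in limma, namely COL1A2, COL4A1, COL4A2, COL5A1, COL6A1, COL6A2 and COL18A1, and 0 fell. Over all tested genes 4.28% rose and 6.62% fell in that fit. Leaving out any other library gave 0 collagen calls. A fit with all 6 libraries in which limma weighs each by its spread called 10 collagen genes, but it called 57.6% of all genes tested, so that count is close to its background.

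**Figure D2:**
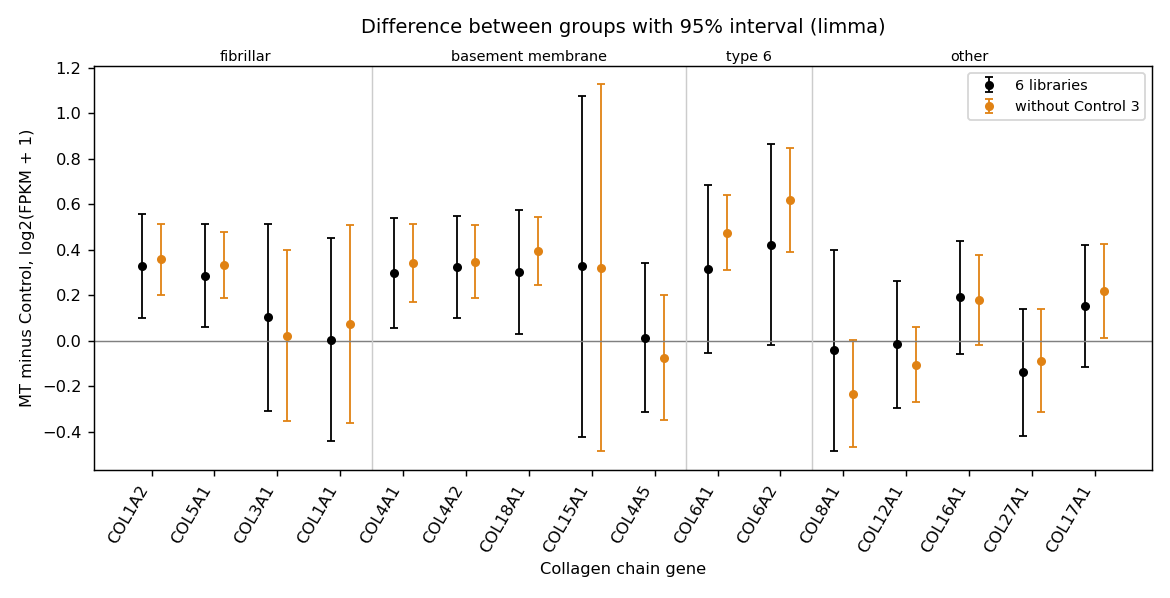
Log2 difference between MT and Control for the 16 tested collagen genes with all 6 libraries and without Control replicate 3, with 95% confidence intervals from limma. With all libraries the abundant chains of types 1, 4, 5 and 18 and COL6A1 lie near 0.3 and COL6A2 at 0.42. The intervals of COL6A1 and COL6A2 include 0 in that fit. Without Control replicate 3 these genes lie between 0.33 and 0.62. COL1A1, COL3A1, COL4A5, COL8A1, COL12A1, COL15A1, COL16A1 and COL27A1 have intervals that include 0 in both fits, and COL17A1 only with all libraries.

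Control replicate 3 differed from the mean of Control replicates 1 and 2 by a median of 0.11 on the log2 scale over the 16 collagens, from -0.57 for COL8A1 to 0.58 for COL6A2, beside a median of -0.02 over all tested genes. It lay above that mean for all 7 genes called without it, by 0.58 for COL6A2, 0.48 for COL6A1, 0.27 for COL18A1 and 0.07 to 0.14 for COL1A2, COL4A1, COL4A2 and COL5A1. Both this difference and those calls are taken against Control replicates 1 and 2, so their common sign is no independent evidence. Over all tested genes, Control replicate 3 lay on the MT side of that mean for 80.3%, and over the 16 collagens for 75.0%. Its lying on the MT side was thus not particular to the collagens. For COL8A1, COL12A1 and COL4A5 Control replicate 3 was the lowest of all 6 libraries.

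As a list, the 16 tested collagens had a median log2 difference of 0.24, with 13 higher and 3 lower in MT. Over all tested genes the median was 0.02, with 6128 higher and 4822 lower. In the fit lacking Control replicate 3, the collagen median was 0.27 (12 higher, 4 lower), beside -0.004 for all tested genes. Collagens of at least 10 FPKM had a median of 0.30, with 9 of 11 higher, and those between 1 and 10 FPKM had a median of 0.01, with 4 of 5 higher. Levels and gene lengths can be read beside these medians. Over the 416 tested genes of at least 100 FPKM the median was 0.019, and over the 4400 with a model of at least 5000 bases it was 0.025. Without Control replicate 3 the median of the 416 abundant genes was 0.081, with 258 higher and 158 lower. That of the 4400 long genes was then -0.036, and that of the collagens of at least 10 FPKM was 0.343.

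Among the fibrillar chains, COL1A2 and COL5A1 were higher in every MT library, and the groups overlapped for COL1A1, COL3A1 and COL5A2. COL1A2 (ENSSSCG00000015326, chromosome 9, 74174484 to 74210407 in Sscrofa11.1) measured 2753, 2635 and 2858 FPKM in Control replicates 1 to 3 and 3414, 3425 and 3508 in MT replicates 1 to 3. MT was the higher group with no overlap, and the means were 2749 ± 112 (SD, n = 3) and 3449 ± 51.3 (SD, n = 3). The log2 difference was 0.33 (SE 0.097, 95% interval 0.10 to 0.56; limma adjusted p = 0.80), and 0.36 without Control replicate 3 (limma adjusted p = 0.032).

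COL5A1, the main chain of type 5 collagen, which is built into type 1 fibres and limits their width, had Control values of 117.9, 114.1 and 127.8 FPKM and MT values of 144.9, 144.5 and 149.7. These groups did not overlap either. The gene lies on chromosome 1 at 273934219 to 274083264. Its log2 difference was 0.29 (SE 0.096, 95% interval 0.06 to 0.51; limma adjusted p = 0.90), and 0.33 without Control replicate 3 (limma adjusted p = 0.032).

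COL1A1 encodes the alpha 1 chain, of which type 1 collagen normally holds more copies than of alpha 2. It was found at far lower levels than COL1A2 in all libraries. COL1A1 (ENSSSCG00000036135, chromosome 12, 26379087 to 26397180) had Control values of 3.24, 3.59 and 4.10 FPKM and MT values of 3.43, 4.98 and 2.79. The MT libraries spanned the whole Control range, and the log2 difference was 0.01 (95% interval -0.44 to 0.45), and 0.07 without Control replicate 3 (limma adjusted p = 0.79). These values rest on 332 to 587 reads per library, and both genes have gene models of similar length (5755 bases for COL1A1 and 5177 for COL1A2), and by mean FPKM COL1A2 was 841 times as abundant as COL1A1.

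COL3A1, which makes the homotrimer of type 3 collagen and is laid down beside type 1 in soft tissue, had Control values of 13.9, 14.6 and 11.9 FPKM and MT values of 14.1, 18.2 and 11.8. Its groups overlapped, and the log2 difference was 0.10 (95% interval -0.31 to 0.51), and 0.02 without Control replicate 3 (limma adjusted p = 0.93). COL5A2, the partner of COL5A1 in the usual trimer of type 5, lay under 1 FPKM, with Control values of 0.914, 0.829 and 0.723 and MT values of 0.819, 0.803 and 0.704. COL5A1 was thus 167 times as abundant as COL5A2 by mean FPKM, and in both pairs the groups overlapped for the rarer chain.

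The basement membrane group held 3 abundant chains, and each was higher in every MT library than in any Control library. COL4A1 and COL4A2 together form the type 4 trimer found in nearly all basement membranes. COL4A1 (chromosome 11, 76858332 to 76997409) had Control values of 320.3, 314.9 and 348.3 FPKM and MT values of 395.6, 383.7 and 431.3, which gave a log2 difference of 0.30 (SE 0.102, 95% interval 0.06 to 0.54; limma adjusted p = 0.91). COL4A2 (chromosome 11, 76996885 to 77161617) had Control values of 201.8, 193.2 and 206.9 FPKM and MT values of 247.0, 242.9 and 264.5, which gave a log2 difference of 0.32 (SE 0.095, 95% interval 0.10 to 0.55; limma adjusted p = 0.78). With Control replicate 3 left out, both rose, by 0.34 for COL4A1 (limma adjusted p = 0.038) and 0.35 for COL4A2 (limma adjusted p = 0.034).

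These neighbouring genes may not be fully separate measurements. From start to end in RefSeq, COL4A1 and COL4A2 overlap by 525 bases. Since the strand setting of the counting is not given, it is not known how reads in that stretch were counted. The order of their levels also rests on gene length. The length recovered for COL4A1 was 2651 bases and that for COL4A2 6475 bases, and in reads COL4A2 was the higher of the pair in every library. If the shorter model is partial, which was not tested, the FPKM of COL4A1, its place in the order of levels and the level of its ratio to COL4A2 carry that scaling, while the difference between groups does not depend on length.

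COL18A1, whose chain carries heparan sulphate side chains and yields the fragment endostatin, had Control values of 69.96, 74.75 and 87.60 FPKM and MT values of 94.51, 95.58 and 95.85. Control replicate 3 was the Control library nearest to MT. The gene lies on chromosome 13 at 207907835 to 207984082, and its log2 difference was 0.30 (SE 0.114, 95% interval 0.03 to 0.57; limma adjusted p = 0.97), or 0.39 without Control replicate 3 (limma adjusted p = 0.026).

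COL15A1, the closest relative of COL18A1, was low and uneven among the MT libraries, with Control values of 2.11, 2.39 and 2.21 FPKM and MT values of 2.98, 5.52 and 1.56. Its log2 difference of 0.33 had a 95% interval from -0.42 to 1.08, and it was 0.32 without Control replicate 3 (limma adjusted p = 0.52). Without MT replicate 2 the difference was -0.02, so its sign rested on that library. COL4A5, a chain of the type 4 network best known from the kidney, had Control values of 2.15, 1.95 and 1.54 FPKM and MT values of 1.65, 1.82 and 2.24, with overlapping groups. Its log2 difference was 0.01 with all libraries and -0.07 without Control replicate 3 (limma adjusted p = 0.66). The remaining type 4 genes COL4A3, COL4A4 and COL4A6 had means of 0.068, 0.008 and 0.132 FPKM. Of the 5 tested basement membrane genes all were higher in MT with 6 libraries (median 0.30), and 4 were higher without Control replicate 3 (median 0.34).

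Both measured chains of type 6 collagen were set apart by Control replicate 3. COL6A1 (ENSSSCG00000022506) measured 137.8 and 137.3 FPKM in Control replicates 1 and 2 but 192.8 in Control replicate 3, and 198.1, 180.1 and 196.8 in MT. COL6A2 measured 23.5 and 22.1 FPKM in Control replicates 1 and 2, 34.6 in Control replicate 3, and 35.5, 31.9 and 39.3 in MT. For both genes Control replicate 3 fell inside the MT range and the other Control libraries lay below it.

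With all 6 libraries the log2 difference was 0.31 for COL6A1 (SE 0.155, 95% interval -0.06 to 0.68) and 0.42 for COL6A2 (SE 0.187, 95% interval -0.02 to 0.87). After leaving out Control replicate 3, they were 0.47 (limma adjusted p = 0.024) and 0.62 (limma adjusted p = 0.025), the largest differences among the called collagens in that fit. A type 6 molecule also holds a further chain, COL6A3 in most tissues, which is not analysed here.

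Among the chains of other types 0 of 5 tested genes passed the test, with or without Control replicate 3. COL8A1, a short network-forming collagen of vessel walls and other membranes, had Control values of 90.2, 75.2 and 55.1 FPKM and MT values of 68.0, 66.4 and 75.9. COL12A1, which sits on the surface of type 1 fibres, had Control values of 42.7, 46.1 and 36.6 FPKM and MT values of 39.8, 41.3 and 42.4. In both genes Control replicate 3 was the lowest of the 6 libraries, and the log2 differences were -0.04 (95% interval -0.48 to 0.40) and -0.02 (95% interval -0.29 to 0.26). In the fit lacking Control replicate 3, they were -0.23 (limma adjusted p = 0.14) and -0.11 (limma adjusted p = 0.30).

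COL16A1, another collagen carried on fibres, was higher in every MT library, with Control values of 10.2, 8.999 and 9.34 FPKM and MT values of 11.3, 11.3 and 10.4. Its log2 difference was 0.19 (95% interval -0.06 to 0.44) and did not pass the test with or without Control replicate 3 (limma adjusted p = 0.16 without it). COL17A1, a membrane-spanning collagen of hemidesmosomes, had Control values of 1.92, 2.09 and 2.45 FPKM and MT values of 2.44, 2.52 and 2.51, and its groups overlapped only through Control replicate 3. Its log2 difference was 0.15 (95% interval -0.12 to 0.42), and 0.22 without Control replicate 3 (limma adjusted p = 0.12). COL27A1, a fibril-forming chain of cartilage set here among the other types, had Control values of 3.89, 3.63 and 4.30 FPKM and MT values of 3.33, 3.26 and 3.87, a difference of -0.14 (95% interval -0.42 to 0.14), or -0.09 without Control replicate 3 (limma adjusted p = 0.52). The 5 tested genes of this group had a median of -0.02, with 2 higher and 3 lower.

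**Figure D3:**
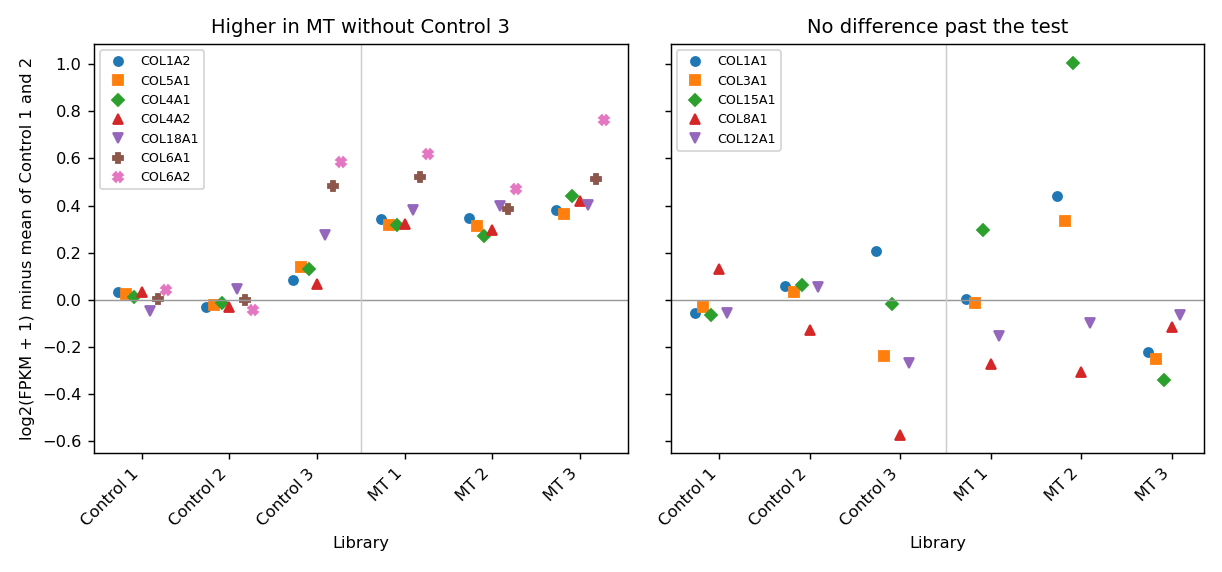
Level of 12 collagen genes in each library on the log2(FPKM + 1) scale, relative to the mean of Control replicates 1 and 2, with 1 point per gene and library. On the left are the 7 genes that rose once Control replicate 3 was left out, whose points lie above 0 in all MT libraries and also in Control replicate 3 (0.07 to 0.58). On the right are 5 genes with no difference past the test, of which COL1A1, COL3A1 and COL15A1 are high in MT replicate 2 and low in MT replicate 3.

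COL1A1, COL3A1 and COL15A1 were each highest in MT replicate 2 and lowest in MT replicate 3 among the MT libraries, a pattern picked out after the values were seen and given without a test. Other low chains had other orders, with COL27A1 and COL4A5 highest in MT replicate 3. The order was not particular to these chains. Of the Sertoli markers of at least 1 FPKM, VIM, WT1, SOX9, INHBB and KRT18 were also highest in MT replicate 2 and lowest in MT replicate 3. AMH and KRT8 were instead lowest in MT replicate 2. Among the markers of peritubular myoid cells, smooth muscle and fibroblasts, DES was also highest in MT replicate 2 (9.43 FPKM) and lowest in MT replicate 3 (5.81) of the MT libraries, whereas MYLK, PDPN and S100A4 were lowest in MT replicate 2 and TAGLN was highest in MT replicate 1. The summed level of the whole marker list was 265, 250 and 234 FPKM in MT replicates 1 to 3, and the part of such cells in these values was not tested.

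The 17 collagen genes under 1 FPKM are listed here for completeness and were not part of the main comparison. COL4A5 was the tested gene nearest to the limit, with a mean of 1.89 FPKM, and COL9A3 was the nearest below it, with a mean of 0.887. COL9A3, COL5A2, COL11A1, COL8A2, COL23A1, COL4A6 and COL24A1 had means between 0.1 and 1 FPKM. The other 10 genes, COL2A1, COL4A3, COL11A2, COL28A1, COL14A1, COL19A1, COL10A1, COL5A3, COL4A4 and COL22A1, had means under 0.1 FPKM and at most 17 reads in any library. COL22A1 had 1 read in a single library, and since a count of 0 allows up to 3 reads, differences at this level were not detectable at this depth.

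Among these low genes the groups did not overlap for COL11A1, higher in MT, and COL5A3, lower in MT. The shares over all tested genes were 6.24% and 4.99%. Those genes averaged 1 FPKM or more, so they are not a like set, and no share over low genes is given here. COL11A1, a chain of the type 11 fibres of cartilage that also joins type 5 trimers, had 96, 99 and 84 reads in Control and 118, 146 and 158 in MT, or 0.480 to 0.592 FPKM against 0.657 to 0.913. In a limma fit with the limit lowered to 0.1 FPKM its log2 difference was 0.22 (SE 0.091, adjusted p = 1.0). COL5A3 had 2, 3 and 3 reads in Control and 0 in each MT library. Each of these Control counts is within what a count of 0 allows in a single library. That limit was not worked out for the 3 MT libraries together.

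Ratios between chains ask whether partners moved apart, since scaling of a library cancels within it. Of the 10 ratios planned, 8 could be formed from genes of at least 1 FPKM, and the groups overlapped in all 8. With 3 libraries against 3 the exact permutation test cannot go below p = 0.1, and the smallest p among the ratios was 0.3 (two-sided; adjusted p = 0.8 by Benjamini-Hochberg over the 8).

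COL4A2 to COL4A1 was the steadiest ratio, at 0.630, 0.613 and 0.594 in Control and 0.624, 0.633 and 0.613 in MT. COL6A2 to COL6A1 was 0.171, 0.161 and 0.180 in Control and 0.179, 0.177 and 0.200 in MT, a log2 difference of 0.12 (exact permutation p = 0.3), which was 0.07 without MT replicate 3. Thus type 6 chains kept a narrow ratio also in Control replicate 3, where both were high. COL18A1 to COL4A1 lay between 0.218 and 0.251 in Control and between 0.222 and 0.249 in MT.

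Of the ratios to COL1A1, 3 were wider among the MT libraries than among the Control libraries. COL1A2 to COL1A1 was 850, 734 and 698 in Control and 996, 688 and 1260 in MT, a log2 difference of 0.33 (exact permutation p = 0.4), which was 0.13 without MT replicate 3 and 0.56 without MT replicate 2. COL5A1 to COL1A1 was 36.4, 31.8 and 31.2 in Control and 42.3, 29.0 and 53.7 in MT, and COL12A1 to COL1A1 was 13.2, 12.8 and 8.95 in Control and 11.6, 8.30 and 15.2 in MT. In MT replicate 3, the library with the least COL1A1, these 3 ratios were the highest of all 6 libraries. COL3A1 to COL1A1 was narrower, at 2.90 to 4.29 in Control and 3.66 to 4.22 in MT, and COL15A1 to COL18A1 was 0.0252 to 0.0320 in Control and 0.0163 to 0.0578 in MT.

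**Figure D4:**
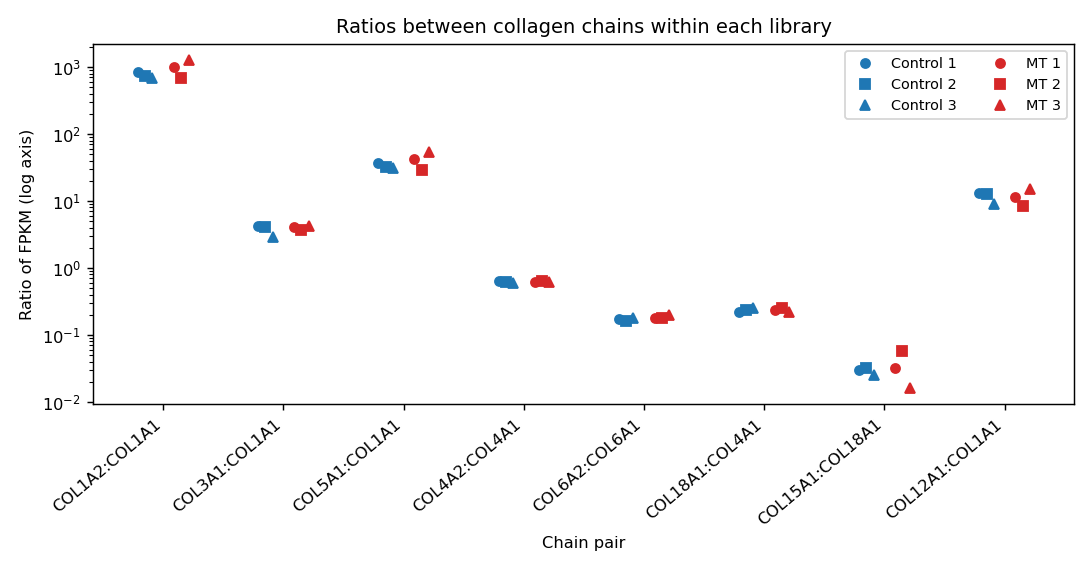
Ratio of FPKM between pairs of collagen chains (log axis), with 1 point per library, Control in blue and MT in red. Control and MT overlap for all 8 pairs, with COL4A2 to COL4A1 and COL6A2 to COL6A1 narrow and the ratios with COL1A1 spread over the MT libraries.

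The genes that make, join, bind and break down collagen were read from 5 lists, and errors given after ± are SDs over 3 libraries. With all 6 libraries 0 genes of any list passed an adjusted p of 0.05 in limma, and 2 genes of the first list, 2 of the second and 1 of each other list had an unadjusted p under 0.05, beside 2.33% of all tested genes in the higher and 2.39% in the lower direction. In the counts that follow, 6.24% of all tested genes had every MT library above every Control library, and 4.28% rose and 6.62% fell without Control replicate 3. Of the biosynthesis and secretion list, 21 of 27 genes were tested, with 19 higher and 2 lower in MT, a median log2 difference of 0.11, and 3 with every MT library above every Control library (P4HA2, MIA3 and SEC24D). With Control replicate 3 left out, P4HA2, PLOD3, P3H3 and FKBP10 rose and 0 fell, while 12 of the list were higher and 9 lower.

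The hydroxylases of proline and lysine in that list differed in how Control replicate 3 stood to the other Control libraries. P4HA2, a catalytic subunit of prolyl 4-hydroxylase, had Control values of 32.7, 31.8 and 38.2 FPKM and MT values of 42.5, 42.6 and 39.2, without overlap, and its difference without Control replicate 3 was 0.35 (limma adjusted p = 0.035). P4HA1, the other main catalytic subunit, had Control values of 53.1, 54.2 and 26.3 FPKM and MT values of 41.9, 52.6 and 44.2. PLOD2, a lysyl hydroxylase of the telopeptides, had Control values of 37.0, 37.4 and 13.7 FPKM and MT values of 25.2, 32.5 and 24.6. PLOD3, another lysyl hydroxylase, averaged 39.3 ± 8.87 FPKM in Control and 45.2 ± 2.68 in MT, and without Control replicate 3, its highest library, it rose by 0.39 (limma adjusted p = 0.033). For P4HA1 and PLOD2 Control replicate 3 was the lowest library, and without it their differences were -0.22 (limma adjusted p = 0.17) and -0.44 (limma adjusted p = 0.057).

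SERPINH1, the collagen chaperone HSP47, averaged 331.1 ± 75.9 FPKM (SD, n = 3) in Control and 345.5 ± 25.4 (SD, n = 3) in MT. Its Control spread came from replicate 3, at 418.2 FPKM, and without that library the difference was 0.26 (limma adjusted p = 0.071). MIA3, the receptor that loads procollagen at the exit sites of the endoplasmic reticulum, averaged 19.9 ± 2.20 FPKM (SD, n = 3) in Control and 26.0 ± 1.78 (SD, n = 3) in MT. CREB3L1, a transcription factor of collagen genes, averaged 77.1 ± 17.5 FPKM in Control and 93.2 ± 15.1 in MT. P3H3, a member of the prolyl 3-hydroxylase family, averaged 26.5 ± 7.47 FPKM in Control and 32.3 ± 2.70 in MT.

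Of the list for propeptide removal and cross-linking, 10 of 15 genes were tested and all 10 were higher in MT, with a median of 0.17 (0.33 without Control replicate 3). LOXL2, a lysyl oxidase that cross-links type 4 collagen, had Control values of 366.5, 368.4 and 520.8 FPKM and MT values of 627.0, 637.2 and 564.4. LOXL4 of the same family had Control values of 40.1, 38.0 and 55.3 FPKM and MT values of 67.7, 61.7 and 64.9. Neither overlapped between groups, with log2 differences of 0.56 (SE 0.161) and 0.55 (SE 0.157), and limma adjusted p = 0.77 for both.

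After leaving out Control replicate 3, LOXL2 rose by 0.73 (limma adjusted p = 0.011) and LOXL4 by 0.71 (limma adjusted p = 0.0099), and LOXL1, ADAMTS2 and PXDN also rose. ADAMTS2, which removes the amino-terminal propeptide of fibrillar collagens, averaged 6.81 ± 1.45 FPKM in Control and 8.81 ± 0.522 in MT. LOX averaged 84.8 ± 14.6 FPKM in Control and 95.3 ± 12.8 in MT, and without Control replicate 3 its difference was 0.02 (limma adjusted p = 0.90). BMP1, the protease of the carboxy-terminal propeptide, averaged 58.6 ± 11.6 FPKM in Control and 65.0 ± 7.25 in MT.

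Of the list of partners in the matrix, 9 of 16 genes were tested, with 7 higher and 2 lower in MT and a median of 0.17. FMOD, the small proteoglycan fibromodulin of collagen fibrils, averaged 84.2 ± 6.48 FPKM in Control and 106.0 ± 7.95 in MT, without overlap. SPARC, a secreted collagen-binding protein, averaged 501.0 ± 86.7 FPKM in Control and 613.4 ± 33.4 in MT, and FN1, fibronectin, averaged 2216 ± 254 and 2634 ± 278. In the fit lacking Control replicate 3, FMOD, SPARC, THBS1 and NID2 rose, SPARC by 0.44 (limma adjusted p = 0.026) and FMOD by 0.38 (limma adjusted p = 0.041). DCN, the fibril-binding proteoglycan decorin, was listed at 0 in all libraries except MT replicate 1, with 0.0247 FPKM.

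Of the receptor list, 8 of 12 genes were tested, with 6 higher and 2 lower, a median of 0.11 and 0 without overlap between groups. DDR2, a receptor kinase for fibrillar collagen, averaged 16.5 ± 2.20 FPKM in Control and 21.6 ± 2.57 in MT. MRC2, the endocytic collagen receptor, averaged 3.51 ± 0.909 and 4.49 ± 0.204 FPKM. With Control replicate 3 left out, DDR1, DDR2 and MRC2 rose (limma adjusted p = 0.047, 0.042 and 0.037), while the median of the list was -0.01.

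Of the breakdown list, 7 of 18 genes were tested, with 5 higher and 2 lower and a median of 0.18 (0.36 without Control replicate 3). MMP14, a membrane-bound collagenase, averaged 17.2 ± 3.16 FPKM in Control and 22.7 ± 1.40 in MT, without overlap, and rose by 0.53 without Control replicate 3 (limma adjusted p = 0.025). CTSB, the lysosomal protease cathepsin B, averaged 26.6 ± 3.38 and 33.3 ± 3.95 FPKM, also without overlap. CTSL, cathepsin L, averaged 4.61 ± 0.148 FPKM in Control and 4.10 ± 0.38 in MT.

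**Figure D5:**
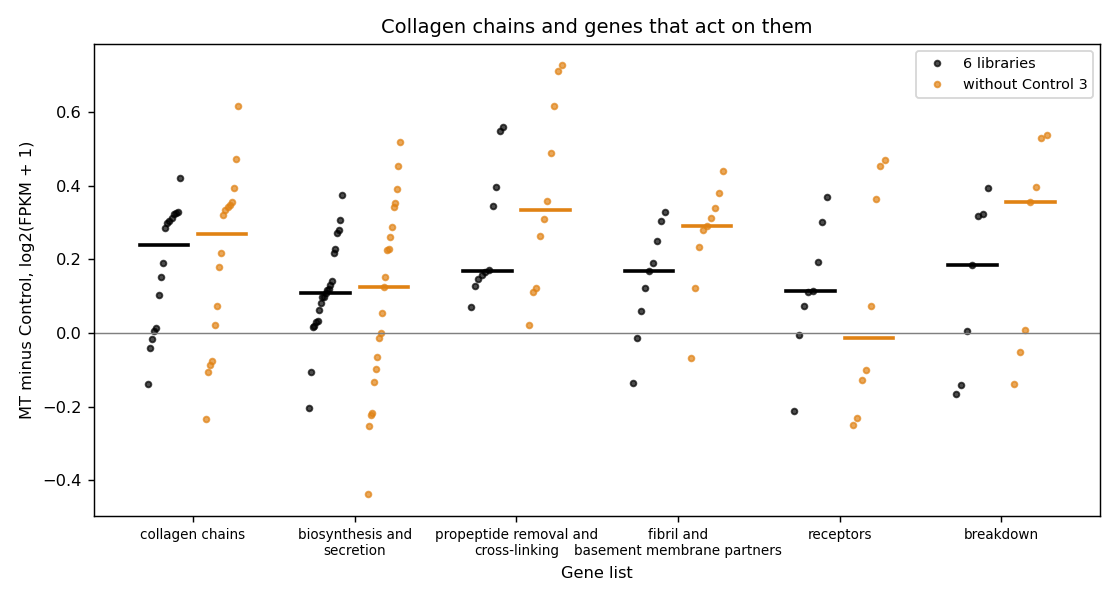
Log2 difference between MT and Control for the tested collagen genes and for those of 5 lists of genes that build, join, bind, sense and break down collagen, with 1 point per gene and a bar at each list's median, with all 6 libraries and without Control replicate 3. The medians with all libraries lie between 0.11 and 0.24, and that of the receptor list falls to -0.01 without Control replicate 3.

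Markers of other cells that make collagen were present in part. Of the list for peritubular myoid cells, smooth muscle and fibroblasts, 6 of 15 genes in the table reached 1 FPKM, and their summed level was 225 to 334 FPKM in Control and 234 to 265 in MT. TAGLN led that sum at 153.7 to 256.9 FPKM, while ACTA2 stayed at or below 0.208, MYH11 at or below 0.0406, PDGFRA at or below 0.058, PDGFRB at or below 0.00831 and POSTN at or below 0.0432. The sum was highest in Control replicate 3 and overlapped between the groups. Within the list MYLK was higher in every MT library (14.01 to 15.08 FPKM in Control, 15.81 to 17.06 in MT), and S100A4, at 13.5, 12.2 and 21.6 FPKM in Control and 18.1 to 23.9 in MT, rose by 0.65 without Control replicate 3 (limma adjusted p = 0.032). The summed Sertoli list was 2760 to 3710 FPKM in Control and 3220 to 3720 in MT. VIM led that sum at 2249 to 3175 FPKM, followed by KRT8 at 390.3 to 514.7. In Control and MT, the Leydig list was 3.93 to 4.39 and 3.74 to 4.87, and the endothelial list 0.503 to 0.674 and 0.493 to 0.631. The leukocyte list was 9.89 to 12.5 and 12 to 13.5, and the germ cell list 1.30 to 1.72 and 1.87 to 1.92. CD68 of the leukocyte list was higher in every MT library (3.175 to 4.14 FPKM in Control, 4.503 to 5.298 in MT). The germ cell sum did not overlap between groups, but its only gene of at least 1 FPKM, UCHL1, did. UCHL1 lay between 0.659 and 1.354 FPKM in Control and between 1.02 and 1.215 in MT. The lack of overlap of that sum therefore needed genes under 1 FPKM. The part of other cell types in the collagen differences was not tested.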

How the data were processed

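The deposited table gives FPKM for each library, computed by the authors from fragments, gene length and library size, per the labels. HISAT2, featureCounts of Subread, bcl2fastq and the build Sscrofa11.1 are named in the submitters' processing notes. Not given in the sources used here are the annotation release, the strand setting and any scaling. All columns were matched to samples by title. FPKM is relative to each library's sum, so a few abundant genes move all others.

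Low values rise in steps of 1 read, from which library totals and gene lengths were recovered, and 100.0% of tested genes came out as whole reads. The 10950 genes averaging 1 FPKM or more were tested with limma 3.58.1 (R 4.3.3) on log2(FPKM + 1), a scale that understates changes of low genes. The model had a term for group and a variance trend, tests were two-sided, and p-values were adjusted by Benjamini-Hochberg with a threshold of 0.05. Chain ratios were compared by exact permutation with scipy 1.17.1. The fit was checked on simulated data. Symbols came from Ensembl identifiers and coordinates from RefSeq by symbol. COL6A1 had no RefSeq entry, and COL6A2 lies on an unplaced scaffold.

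All collagen genes were named, with up to 4 genes of smallest p from each list and a set of main enzymes and receptors. Other listed genes were named where they were called or did not overlap. The members and lists were chosen with earlier results of these data known. Alternatives tried were other filters, pseudocounts, variance models and scalings, limma voom on recovered reads, sample weights, a replicate block and leaving out each library. Combinations without Control replicate 3 were chosen after seeing the data. Same-numbered libraries correlated at -0.44, 0.63 and 0.34 in their deviations from group means, so the numbers were not taken to pair samples.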

Additional observations from a re-analysis of the deposited data

How the results depend on the processing

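The number of collagen genes called was 0 in the main analysis, ranged from 0 to 7 over the fits without one library each (7 without Control replicate 3), was 10 with limma sample weights, and was 7 in each of the 5 combinations without Control replicate 3 chosen after seeing the data. In limma voom on recovered reads of all 6 libraries it was 0, with 5 collagens at an unadjusted p under 0.05. With a replicate block it was 0 and the median was 0.238, as without the block. At an unadjusted p under 0.05 there were 5 collagens in the main limma fit, 2 with upper quartile scaling and 6 with quantile normalisation. Without Control replicates 1, 2 and 3 in turn there were 2, 0 and 8, and without MT replicates 1, 2 and 3 there were 1, 3 and 1. Over all 10950 tested genes these numbers were 517, 455 and 548, then 427, 285 and 3966, and then 249, 338 and 265.

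The median log2 difference of the tested collagens was 0.142 with a limit of 0.1 FPKM, 0.0206 with no filter and 0.192 after quantile normalisation, as more low genes entered in the first pair, and 0.159 to 0.269 with one library left out. Without Control replicate 3 it was 0.272 with quantile normalisation, 0.294 with upper quartile scaling, 0.276 with equal sums outside collagen genes, 0.319 with a pseudocount of 0.1 and 0.325 with voom. The share of higher genes among all calls in that fit was 39.3%, and 49.7%, 52.3% and 45.1% with those 3 scalings.

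Some genes changed sign between settings, and the cause was not tested. Most of them were near 0 in the main analysis, but COL15A1 was at 0.326 there and at -0.0173 without MT replicate 2. COL1A1 gave -0.000301 with a pseudocount of 0.1, -0.0071 with upper quartile scaling, -0.0121 with quantile normalisation, -0.0374 with sample weights, -0.00347 with voom and -0.177 to 0.152 with one library left out. COL12A1 gave 0.0129 with quantile normalisation and -0.106 to 0.0557 with one library left out. COL4A5 gave -0.027 with quantile normalisation, -0.112 with sample weights and -0.0748 to 0.0802 with one library left out, and without Control replicate 3 it gave -0.0422, -0.0509, -0.0675, -0.11 and -0.117 under the 5 combinations in the order above. COL3A1 gave -0.0476 with sample weights. With one library left out, COL3A1 ranged from -0.0544 to 0.24, COL8A1 from -0.233 to 0.118 and COL15A1 from -0.0173 to 0.656. The ratios that changed sign ranged from -0.0641 to 0.217 for COL3A1 to COL1A1, -0.047 to 0.0547 for COL18A1 to COL4A1, -0.352 to 0.56 for COL15A1 to COL18A1 and -0.225 to 0.211 for COL12A1 to COL1A1. The other ratios kept their sign, at 0.128 to 0.564 for COL1A2 to COL1A1, 0.084 to 0.528 for COL5A1 to COL1A1, 0.0671 to 0.161 for COL6A2 to COL6A1 and 0.00442 to 0.0467 for COL4A2 to COL4A1. Of the tested collagens, 11 had at least 1000 reads in every library and the fewest reads of any were 239, where counting error is larger.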
